A study of Rattus norvegicus with 6 samples.

Results

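The genes of the late sterol steps, which make lanosterol and convert it to cholesterol, were read from liver RNA sequencing. The animals were 3 fed a high-fat diet (HFD) and 3 fed that diet and given HTG. The genes were Lss, Cyp51, Tm7sf2, Msmo1, Nsdhl, Hsd17b7, Ebp, Sc5d and Dhcr7, found by their symbols, and they make up 9 of the 32930 genes listed. Each symbol had a single row. HTG stands for Huazhuo Tiaozhi granule, a preparation of herbs. The labels give 12 weeks of intervention and 0.5% CMC-Na, a cellulose vehicle, for the HFD group. In the study's rat experiment the high-fat diet lasted 12 weeks, and gavage began only after its first weeks. The titles name the treatment HTG, whereas the treatment label reads HCG. All 6 animals ate the high-fat diet, and none of the 6 libraries came from an animal on a normal diet. The labels call the animals rats, the study's RNA sequencing methods name C57BL/6 J mice with dyslipidaemia, and the gene rows carry mouse Ensembl identifiers. The animals' age and strain are not given in the labels. Each group is therefore given by its label and the genes by the mouse symbols of the table, whose coordinates are printed as listed, without a named build.

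Cholesterol is made in the liver from acetyl-CoA through the mevalonate pathway, squalene and lanosterol. Of the late enzymes, that of Lss makes lanosterol, and the others act on the sterol itself. They remove methyl groups and move and reduce double bonds, in steps known to follow a branched order. The transcription factor SREBP-2, encoded by Srebf2, is known to switch on most genes of the pathway when sterols in the endoplasmic reticulum are low. SREBP-2 is bound to its escort Scap, and the Insig proteins hold both there. When sterols are low, Scap carries SREBP-2 out, and the proteases of Mbtps1 and Mbtps2 cut it free.

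No late sterol gene passed the adjusted threshold in the main test. Among the 9 genes, Hsd17b7 alone was lower in HTG at an unadjusted p under 0.05, with 49.1 ± 27.2 CPM in HFD and 17.3 ± 5.92 CPM in HTG (mean ± SD, n = 3 each). In the other 8 genes, the highest and lowest libraries of either group differed by a larger fold than the group means did. HFD library 3 and HTG library 3 were the highest of their group in 9 of 9 genes. CPM are counts relative to the library's TMM-normalised total. In bulk liver RNA, fewer cells of a type and less RNA per cell cannot be told apart. The p-values measure only the spread between these libraries, which the study design describes as coming from 6 animals.

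**Figure D1:**
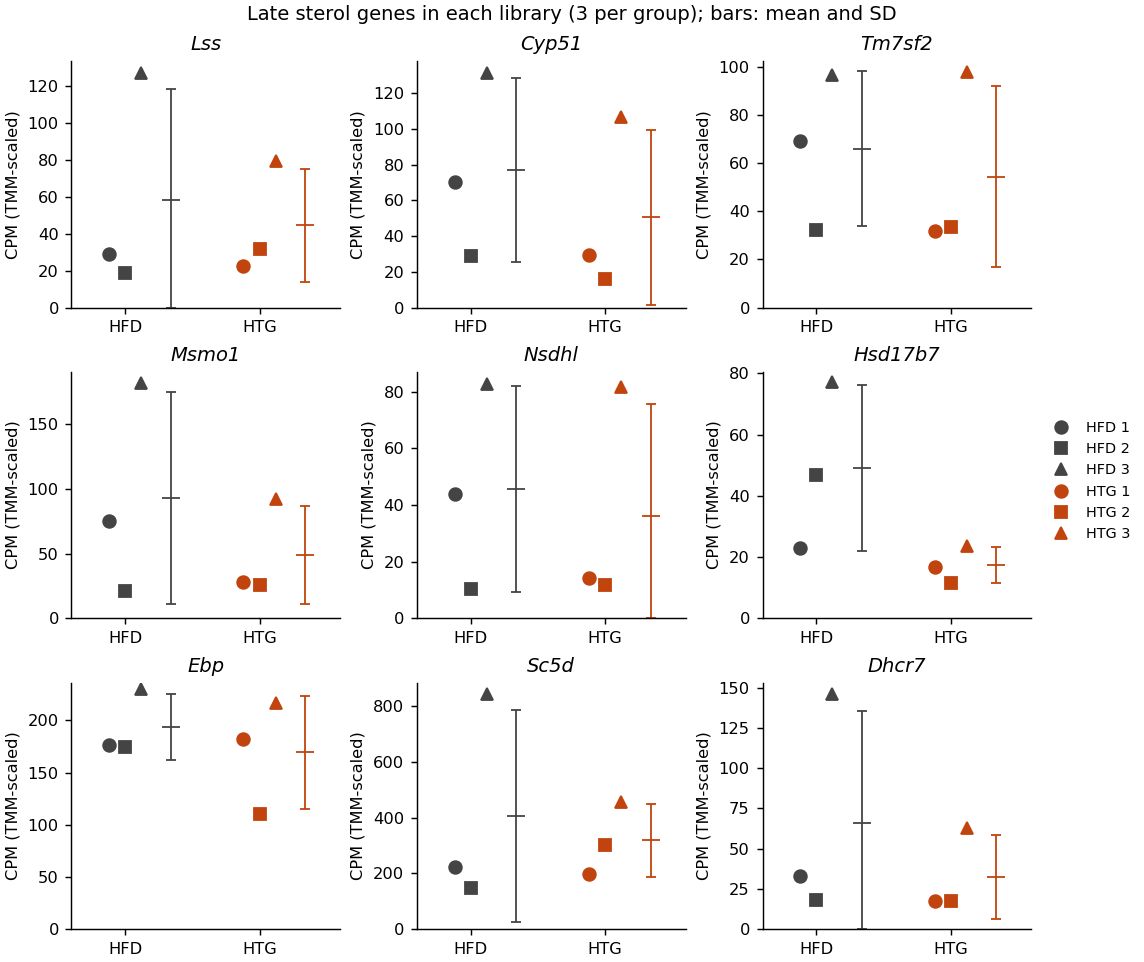
CPM (y axis, linear from 0) of each late sterol gene in the 3 HFD and 3 HTG libraries, with the group mean and SD beside the points (n = 3 per group, bars cut at 0). The triangles, library 3 of each group, are the highest points of their group in all 9 panels, and the HTG points of Hsd17b7 lie between 11.7 and 23.5 CPM.

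Lss encodes lanosterol synthase, which closes the ring system and makes lanosterol. The gene (ENSMUSG00000033105) is listed at chr10:76367422-76392972 on the plus strand. It had 28.9, 18.6 and 127 CPM in HFD libraries 1, 2 and 3. The HTG libraries 1, 2 and 3 had 22.6, 31.5 and 79.4 CPM. HFD library 3 was highest, HTG library 3 came next, and the other 4 libraries of both groups were intermixed. The means were 58.2 ± 60.0 CPM in HFD and 44.5 ± 30.5 CPM in HTG (SD, n = 3 each). The log2 fold change, HTG minus HFD, was -0.39 (SE 0.72, 95% interval -2.05 to 1.27, adjusted p = 0.775, edgeR quasi-likelihood test with Benjamini-Hochberg adjustment). A long non-coding gene, 4930483K19Rik, overlaps Lss on the other strand and had between 0 and 15 estimated counts per library, against 1239 to 9138 for Lss.

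Cyp51 encodes the cytochrome P450 that removes the first methyl group of lanosterol. The gene (ENSMUSG00000001467) is listed at chr5:4131145-4154746 on the minus strand. Its levels were 70.3, 28.8 and 131 CPM in HFD and 29.2, 15.7 and 106 CPM in HTG. HTG library 3 exceeded HFD libraries 1 and 2, and HTG library 2 was the lowest of all 6. The group means were 76.8 ± 51.6 and 50.4 ± 48.9 CPM (SD, n = 3 each), with a log2 fold change of -0.61 (SE 0.72, 95% interval -2.26 to 1.05, adjusted p = 0.639, edgeR). Akap9 overlaps Cyp51 on the other strand with 1393 to 3132 estimated counts per library, and Cyp51 had 1539 to 9438. Whether counting used the strand is not stated, so reads from the overlap of these genes cannot be told apart.

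Tm7sf2 encodes a reductase of the ring double bond formed by Cyp51, an activity that Lbr, the lamin B receptor, shares. It (ENSMUSG00000024799) is listed at chr19:6112851-6117880 on the minus strand. The HFD libraries had 69.0, 32.3 and 96.6 CPM and the HTG libraries 31.9, 33.3 and 97.7 CPM. The library 3 values of the groups were close, and HFD library 2 was close to HTG libraries 1 and 2, so that HFD library 1 was the one library without a near counterpart. The means of 66.0 ± 32.2 and 54.3 ± 37.6 CPM (SD, n = 3 each) gave a log2 fold change of -0.28 (SE 0.51, 95% interval -1.45 to 0.89, adjusted p = 0.769, edgeR). Vps51 overlaps Tm7sf2 on the same strand and had 1033 to 1985 estimated counts, against 2157 to 6937 for Tm7sf2, and how the counting divided their shared reads is not stated.

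Msmo1, Nsdhl and Hsd17b7 act in turn to take off the remaining methyl groups. Msmo1 is the methylsterol monooxygenase that starts their oxidation. The gene (ENSMUSG00000031604) is listed at chr8:65171173-65186826 on the minus strand. HFD libraries 1 to 3 had 75.5, 21.1 and 182 CPM, and HTG libraries 1 to 3 had 28.4, 25.6 and 92.5 CPM. The HFD libraries spanned 8.62-fold, and HFD library 2 lay below all 3 HTG libraries. The means were 92.9 ± 81.9 and 48.8 ± 37.8 CPM (SD, n = 3 each), a ratio of 1.90. Its log2 fold change of -0.93 had an SE of 0.74 and a 95% interval from -2.63 to 0.77 (adjusted p = 0.472, edgeR).

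Nsdhl encodes the sterol dehydrogenase of this step. It (ENSMUSG00000031349) is listed at chrX:71962163-72002120 on the plus strand. The HFD libraries held 43.9, 10.2 and 82.9 CPM and the HTG libraries 14.3, 11.9 and 81.6 CPM. The library 3 values of both groups were nearly equal, and HFD library 2 was the lowest of the 6. The spread was 8.16-fold within HFD and 6.88-fold within HTG, while the group means, 45.6 ± 36.4 and 35.9 ± 39.6 CPM (SD, n = 3 each), differed by 1.27-fold. Nsdhl had the widest interval of the 9 genes, from -2.31 to 1.62 around a log2 fold change of -0.35 (SE 0.86, adjusted p = 0.836, edgeR).

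Hsd17b7 encodes the keto-reductase that completes removal of these methyl groups, and the protein is also known to act on estrone. The gene (ENSMUSG00000026675) is listed at chr1:169777104-169796810 on the minus strand. HFD libraries 1 to 3 held 1567, 3130 and 5549 estimated counts, and HTG libraries 1 to 3 held 1316, 1141 and 1100. Scaled, these were 23.0, 46.9 and 77.3 CPM in HFD and 16.9, 11.7 and 23.5 CPM in HTG. The groups overlapped by a narrow margin: HFD library 1 lay just below HTG library 3, and the other HFD libraries lay above all HTG libraries. The log2 fold change was -1.50 (SE 0.43, 95% interval -2.48 to -0.52), with an unadjusted p of 0.00743 and an adjusted p of 0.0876 in edgeR. In DESeq2 the adjusted p of Hsd17b7 was 0.00324.

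The overlap of the Hsd17b7 groups depended on the scale. As FPKM, which divides by transcript length and library total, HFD had 4.52, 8.31 and 15.03 and HTG had 3.09, 2.31 and 4.0, and the groups did not overlap. With DESeq2's size factors the lowest HFD library had 23.3 CPM and the highest HTG library 23.2 CPM, which also left no overlap. Hsd17b7 was lower in HTG in 17 of 17 alternative fits, with log2 fold changes from -1.84 to -1.02 and unadjusted p-values from 8.73e-05 to 0.0302. The adjusted p was under 0.05 in 1 of them, DESeq2, and ranged from 0.00324 to 0.321. Hsd17b7 was also the one gene of the 9 in which HFD library 1, not HFD library 2, was the lowest of HFD. A test of the difference between Hsd17b7 and the other late sterol genes was not made.

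Ebp encodes the isomerase that shifts a ring double bond. It (ENSMUSG00000031168) is listed at chrX:8051568-8059751 on the minus strand. The HFD libraries had 177, 175 and 230.4 CPM and the HTG libraries 182, 110.3 and 216 CPM. Ebp varied least of the 9 genes, 1.32-fold within HFD and 1.96-fold within HTG. The means of 194 ± 31.6 and 170 ± 54.2 CPM (SD, n = 3 each) gave a log2 fold change of -0.19 (SE 0.27, 95% interval -0.82 to 0.43, adjusted p = 0.698, edgeR), the narrowest interval among the 9.

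Sc5d encodes the desaturase that adds a ring double bond. It (ENSMUSG00000032018) is listed at chr9:42162891-42175552 on the minus strand. Its HFD libraries had 224, 149 and 844 CPM and its HTG libraries 196, 303 and 455 CPM. HFD library 3 carried 60648 estimated counts of Sc5d, against 9921 to 29611 in the other 5 libraries. HFD libraries 1 and 2 lay below HTG libraries 2 and 3. The means were 406 ± 382 and 318 ± 130 CPM (SD, n = 3 each), and the log2 fold change was -0.35 (SE 0.61, 95% interval -1.76 to 1.05, adjusted p = 0.759, edgeR).

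Dhcr7 encodes the reductase of the last ring double bond, whose human deficiency causes Smith-Lemli-Opitz syndrome. The gene (ENSMUSG00000058454) is listed at chr7:143376882-143402147 on the plus strand. Dhcr7 stood at 33.0, 17.8 and 146 CPM in HFD and at 17.2, 17.3 and 62.5 CPM in HTG. HFD library 2 was level with HTG libraries 1 and 2, and HTG library 3 exceeded HFD libraries 1 and 2. The means, 65.6 ± 70.0 and 32.3 ± 26.2 CPM (SD, n = 3 each), had a ratio of 2.03. The log2 fold change was -1.02 (SE 0.79, 95% interval -2.84 to 0.79, adjusted p = 0.458, edgeR).

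Over the 9 genes, 1 (Hsd17b7) was lower and 0 were higher in HTG at an unadjusted p under 0.05, and 8 did not pass. Of all 18455 genes tested, 12.4% were lower and 12.3% higher at that threshold. At an adjusted p under 0.05 none of the 9 genes was called by edgeR, where 0.0108% of all genes were called in either direction. DESeq2 called 1 of the 9 lower at an adjusted p under 0.05, and it called 5.81% of all genes with an adjusted p lower. Groups did not overlap in 0 of the 9 genes, against 15.5% of all genes with every HTG library lower and 16.5% with every HTG library higher. The fitted log2 fold change was below 0 in 9 of 9 late sterol genes and in 8933 of all 18455 genes, and its median was -0.39 over the 9 and 0.025 over all genes. For a single gene, 3 libraries against 3 cannot give an exact two-sided permutation p under 0.1.

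**Figure D2:**
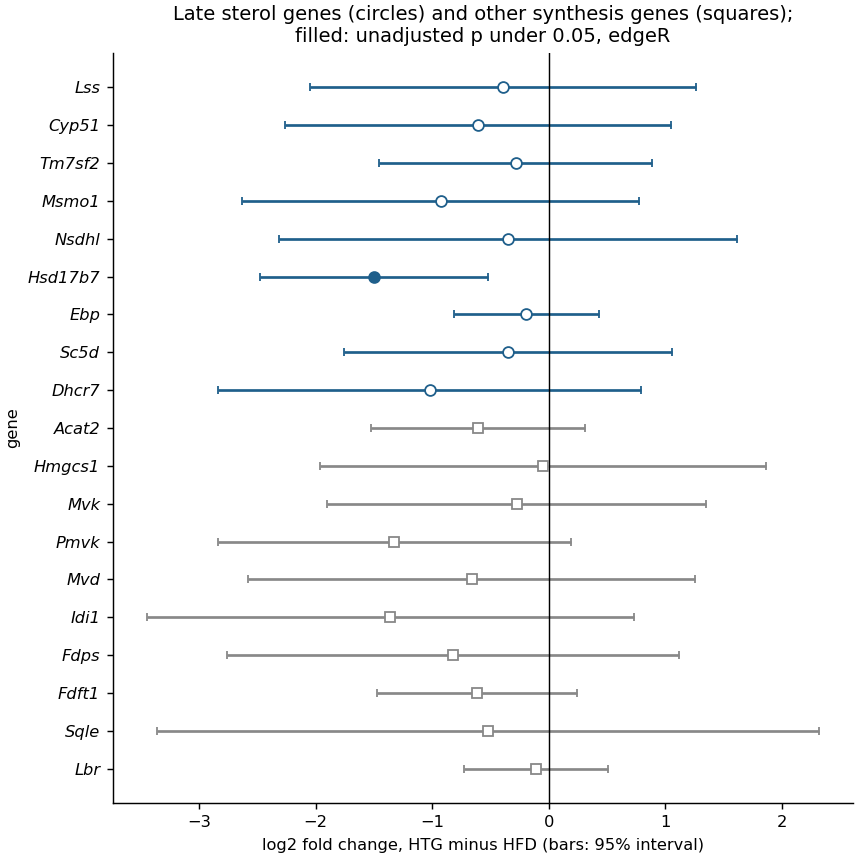
Log2 fold change, HTG minus HFD (x axis), of the 9 late sterol genes (circles) and 10 other cholesterol synthesis genes (squares), with 95% intervals from edgeR. The filled symbol, Hsd17b7 at -1.50, has an unadjusted p under 0.05. The intervals of the other genes include 0.

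The late sterol genes differed more between libraries of a group than most genes did. The SD of log2(CPM + 0.1) within groups had a median of 1.22 over the 9 genes, from 0.39 for Ebp to 1.54 for Nsdhl. The 10 other cholesterol synthesis genes had a median of 1.31, from 0.35 for Lbr to 2.23 for Sqle, so the spread was not particular to the late steps. Over all genes tested the median was 0.35 (quartiles 0.23 and 0.57), and over the 8014 genes with a mean of at least 10 CPM it was 0.24 (quartiles 0.17 and 0.34). As large an SD as that of Nsdhl was found in 0.611% of these 8014 genes, that of Dhcr7 in 0.986% and that of Msmo1 in 1.02%. The share was 4.27% for Hsd17b7 and 18.4% for Ebp. These are descriptions, with no test.

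The libraries in which the genes were high were the same for nearly all of them. Both libraries numbered 3 were the highest of their group in 9 of 9 late sterol genes and in 13.9% of all genes tested. HFD library 3 exceeded the mean of HFD libraries 1 and 2 by between 1.31-fold (Ebp) and 5.74-fold (Dhcr7). HTG library 3 exceeded the mean of the other HTG libraries by between 1.48-fold (Ebp) and 6.23-fold (Nsdhl). HTG library 3 lay above HFD library 1 in 9 genes and above HFD library 2 in 8, all but Hsd17b7. At the low end, HFD library 2 was the lowest HFD library in 8 genes, and it lay below all HTG libraries in Lss, Msmo1, Nsdhl and Sc5d. The shares of all genes with these orders of single libraries are not given here, so how unusual these counts were was not assessed.

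Summed over the 9 genes, the HFD libraries had 745, 499 and 1918 CPM and the HTG libraries 539, 560.2 and 1215 CPM. The sum of HTG library 3 stood above those of HFD libraries 1 and 2. The mean log2 CPM of the 9 genes, each centred on its own mean over the 6 libraries, was 0.10, -0.72 and 1.42 in HFD and -0.71, -0.86 and 0.77 in HTG. HFD library 2 was thus level with HTG libraries 1 and 2. The numbers come from the titles, which do not say whether they pair the animals. The choice of the libraries numbered 3 was made after these values were seen.

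**Figure D3:**
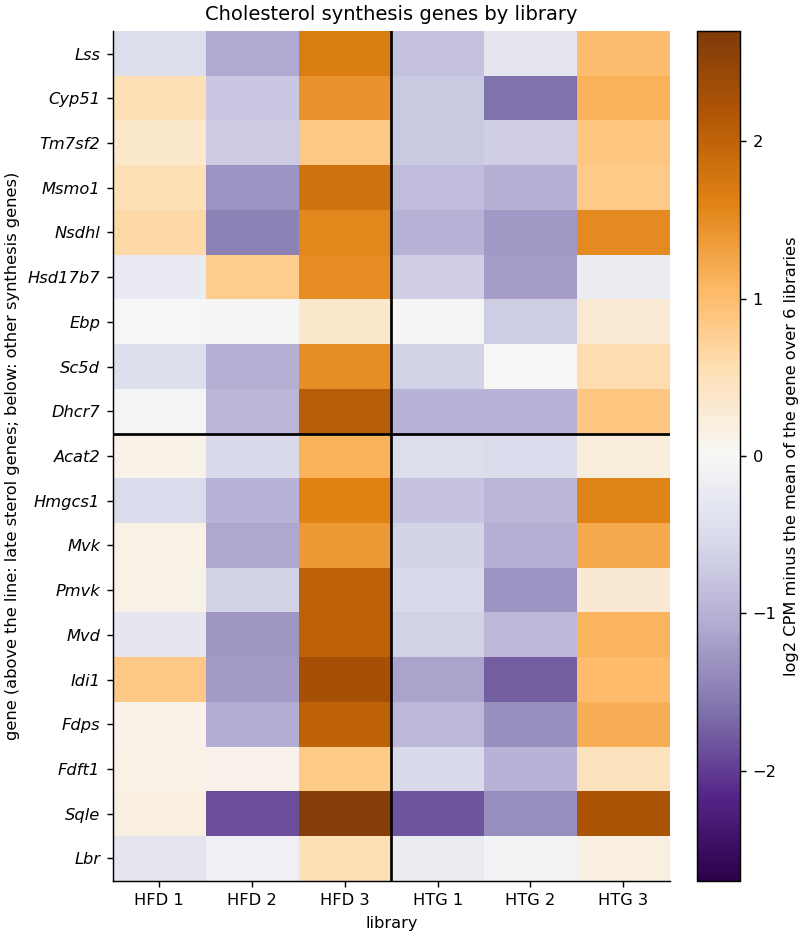
Log2 CPM minus the gene's mean over the 6 libraries (colour, orange high and purple low) for the 9 late sterol genes (above the line) and 10 other cholesterol synthesis genes (below it). The columns of HFD library 3 and HTG library 3 are orange in most rows, and Hsd17b7 is the exception in HTG library 3.

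Leaving out library 3 of either group moved the median log2 fold change of the 9 genes further than the other alternatives did. Without HTG library 3, 6 of the 9 genes were lower in HTG at an unadjusted p under 0.05, where 8.70% of all genes were. They were Cyp51, with a log2 fold change of -1.77, Tm7sf2 (-1.02), Msmo1 (-1.78), Nsdhl (-1.80), Hsd17b7 (-1.77) and Dhcr7 (-1.93). Hsd17b7 had the smallest unadjusted p of these, 0.00731, and Msmo1 the largest, 0.04996, in edgeR. None passed the adjusted threshold, and the median over the 9 genes was -1.77. Without HFD library 3, 1 of the 9 genes (Hsd17b7) was lower at that threshold, where 10.2% of all genes were. There the median was 0.092 over the 9 genes and 0.050 over all genes. The fitted log2 fold change was above 0 in 7 genes, all but Hsd17b7 and Ebp. It ran from 0.0080 in Msmo1 and 0.018 in Cyp51, both close to no difference, up to 0.90 in Lss. In that fit 0 of the 9 genes were higher at an unadjusted p under 0.05. With both libraries numbered 3 left out, Hsd17b7 had a log2 fold change of -1.27 (adjusted p = 0.321, edgeR) and the median was -0.64. In the fits that leave 2 libraries in a group, the p-values rest on 5 libraries, or on 4 where both are left out.

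**Figure D4:**
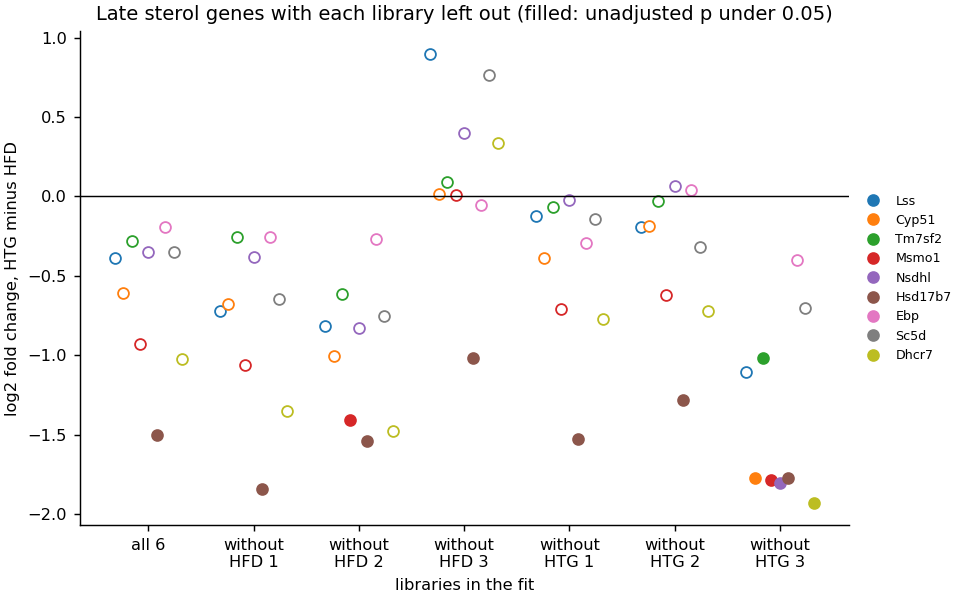
Log2 fold change, HTG minus HFD (y axis), of each late sterol gene (colour) with all 6 libraries and with each library left out (x axis). Filled points have an unadjusted p under 0.05 in edgeR. Hsd17b7 is filled in every column, 6 genes are filled without HTG library 3, and 7 genes lie above 0 without HFD library 3.

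Levels were compared between genes as FPKM, which takes transcript length into account. Averaged over the 6 libraries, Ebp had 74.6 FPKM and Sc5d 71.3 FPKM, and they were the top 2 of the 9 genes in 6 of 6 libraries. Ebp exceeded Sc5d in 4 of 6 libraries, so the order of these neighbours was not fixed. Cyp51 (13.7 FPKM), Nsdhl (13.5 FPKM), Tm7sf2 (13.0 FPKM) and Msmo1 (11.1 FPKM) followed. Cyp51 exceeded Nsdhl in 4 of 6 libraries, Nsdhl exceeded Tm7sf2 in 2, and Tm7sf2 exceeded Msmo1 in 5. Msmo1 lay above Dhcr7 (8.08 FPKM) in 6 of 6 libraries. Dhcr7 exceeded Hsd17b7 (6.21 FPKM) in 4, and Hsd17b7 exceeded Lss (4.54 FPKM) in 4.

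The FPKM of Sc5d were 46.19, 27.63 and 172.37 in HFD and 37.59, 62.93 and 81.31 in HTG. For Ebp the values were 76.80, 68.26 and 99.07 in HFD and 73.63, 48.25 and 81.53 in HTG. Ebp and Sc5d were nearly equal in HTG library 3, and Sc5d was above Ebp in HFD library 3 and HTG library 2. Lss ran from 1.55 FPKM in HFD library 2 to 11.71 FPKM in HFD library 3. In HTG, Lss lay between 1.95 and 6.40 FPKM.

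**Figure D5:**
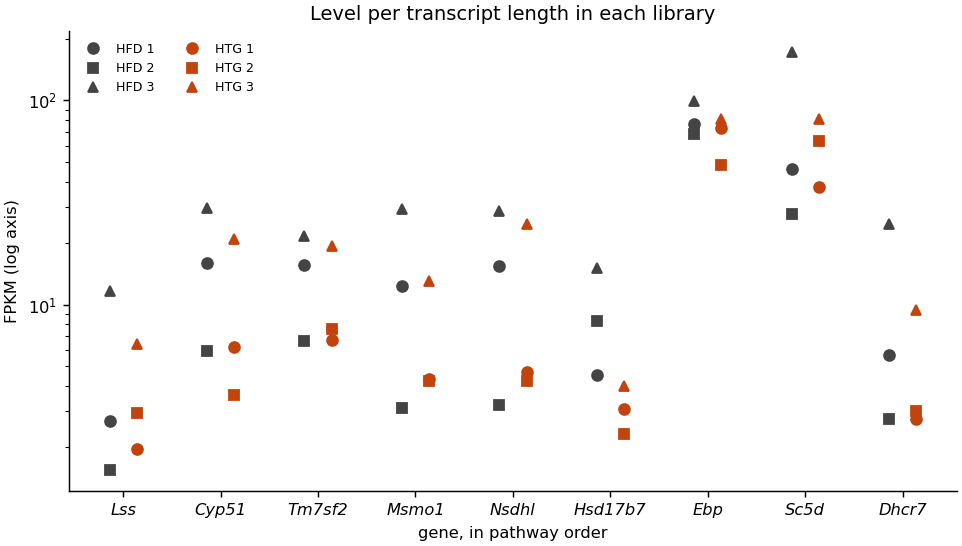
FPKM (y axis, log scale) of the 9 late sterol genes in pathway order (x axis) in each HFD and HTG library. Ebp and Sc5d stand above the other genes, and library 3 of each group (triangles) is the highest of its group in each gene.

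Of 10 other genes of cholesterol synthesis (Acat2, Hmgcs1, Mvk, Pmvk, Mvd, Idi1, Fdps, Fdft1, Sqle and Lbr), 0 were lower and 0 were higher in HTG at an unadjusted p under 0.05, by edgeR or DESeq2, and none passed the adjusted threshold. Of all genes tested, 12.4% were lower and 12.3% higher at an unadjusted p under 0.05 in edgeR. Groups overlapped in 10 of the 10 synthesis genes. Over all genes, 15.5% had every HTG library lower and 16.5% every HTG library higher. The fitted log2 fold changes of the 10 genes ran from -1.36 to -0.052, with a median of -0.61. HFD library 3 was the highest HFD library and HTG library 3 the highest HTG library in 10 of the 10 genes. Both were highest in 13.9% of all genes tested. Summed, these genes had 459.9, 281 and 1433 CPM in HFD and 273 CPM, 228 CPM and 976 CPM in HTG. As in the late sterol genes, the sum of HTG library 3 stood above those of HFD libraries 1 and 2. Lbr, the other enzyme of the Tm7sf2 step, had 6.34, 7.39 and 11.8 CPM in HFD and 6.97, 7.59 and 9.09 CPM in HTG. Its groups overlapped, and its log2 fold change was -0.11 (SE 0.27, adjusted p = 0.837, edgeR).

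Of 6 sterol regulators (Srebf2, Scap, Insig1, Insig2, Mbtps1 and Mbtps2), 3 were lower and 0 higher in HTG at an unadjusted p under 0.05. Of all genes, 12.4% were lower and 12.3% higher. None of the 6 passed the adjusted threshold in edgeR. Every HTG library was lower than every HFD library in 3 of the 6 (Scap, Mbtps1 and Mbtps2), against 15.5% of all genes. In the other 3 the groups overlapped. Srebf2 had 50.1, 36.5 and 80.3 CPM in HFD and 42.6, 33.0 and 56.1 CPM in HTG, again with library 3 highest in both groups. Its log2 fold change was -0.34 (SE 0.31, adjusted p = 0.529, edgeR). Insig2 had 51.3, 179 and 121 CPM in HFD and 68.9, 32.1 and 46.5 CPM in HTG. HTG library 1 of Insig2 lay above HFD library 1, and HFD library 2 was the highest of the 6, unlike in the late sterol genes. Its log2 fold change was -1.25 (SE 0.45, unadjusted p = 0.0221, adjusted p = 0.135, edgeR), and the unadjusted p was under 0.05 in 12 of 17 alternative fits. Its adjusted p in DESeq2 was 0.0196. Scap (-0.66, adjusted p = 0.149) and Mbtps2 (-0.48, adjusted p = 0.197) were the other genes below the unadjusted threshold, Scap in 12 of 17 and Mbtps2 in 2 of 15 alternative fits, and were named after their values were seen.

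The 5 genes with the profile most like the mean profile of the 9 late sterol genes were Rdh11, Cdc20, Ttc39a, Fcgbp and Lmtk3. Likeness was the root-mean-square difference of centred log2 CPM over the 6 libraries, among 14301 protein-coding genes outside the lists. Rdh11, a retinol dehydrogenase gene, differed by 0.18, which was less than any of the 9 genes themselves (0.27 for Tm7sf2 to 0.76 for Hsd17b7). Rdh11 had 23.9, 16.8 and 63.9 CPM in HFD and 14.9, 10.005 and 37.1 CPM in HTG. Ttc39a differed by 0.23, with 8.49, 3.63 and 14.9 CPM in HFD and 4.26, 2.83 and 13.2 CPM in HTG. Cdc20, a cell-cycle gene, differed by 0.20 at a lower level, 0.55 to 2.69 CPM. Lmtk3 differed by 0.28 and came near the limit of 3 fragments (taken as 12 counts), at 0.154 to 1.14 CPM.

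Promoter sequence was read for the genes that were high in the same libraries. The sequences are from RefSeq for the labelled species, rat (build GRCr8), from 250 bases before to 50 bases after the start, whereas the gene rows are mouse, so they show the rat counterparts. All 9 symbols matched. On either strand, CCAAT, the core of the box bound by NF-Y, was found in 7 of 9 promoters (all but Cyp51 and Dhcr7) and in 37.5% of all 33469 entries. GGGCGG, the core of the box bound by Sp1, was found in 8 of 9 (all but Nsdhl) and in 33.1% of all entries. TCACNCCAC, a form of the sterol regulatory element, was found in 0 of 9 and in 1.12% of all entries. The shorter TCACNCCA, which it contains, was found in 1 of 9 (Msmo1) and in 3.89%. The motifs were chosen after the expression values were seen, and a match is a description of the letters in this window. The genes of methyl-group removal are shown, 3 with several CCAAT matches and Cyp51 with none: Cyp51 (plus strand, chr4:30991443-30991742, 0 matches), Msmo1 (plus strand, chr16:29746863-29747162, 3 matches), Nsdhl (plus strand, chrX:155817110-155817409, 5 matches) and Hsd17b7 (minus strand, chr13:84722705-84723004, 3 matches). They run 5′ to 3′ on the gene's strand, and capitals mark CCAAT or its reverse complement.
Cyp51: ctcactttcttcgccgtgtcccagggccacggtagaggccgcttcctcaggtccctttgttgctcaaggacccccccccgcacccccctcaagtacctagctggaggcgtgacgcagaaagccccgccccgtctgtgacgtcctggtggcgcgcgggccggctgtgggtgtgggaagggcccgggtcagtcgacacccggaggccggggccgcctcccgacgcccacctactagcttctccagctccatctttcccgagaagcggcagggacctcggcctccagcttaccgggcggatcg
Msmo1: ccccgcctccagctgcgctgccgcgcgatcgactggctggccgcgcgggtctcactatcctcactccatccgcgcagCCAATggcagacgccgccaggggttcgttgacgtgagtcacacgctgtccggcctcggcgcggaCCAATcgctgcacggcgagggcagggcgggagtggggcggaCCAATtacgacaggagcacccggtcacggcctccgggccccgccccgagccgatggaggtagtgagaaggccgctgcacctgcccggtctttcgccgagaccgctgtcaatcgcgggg
Nsdhl: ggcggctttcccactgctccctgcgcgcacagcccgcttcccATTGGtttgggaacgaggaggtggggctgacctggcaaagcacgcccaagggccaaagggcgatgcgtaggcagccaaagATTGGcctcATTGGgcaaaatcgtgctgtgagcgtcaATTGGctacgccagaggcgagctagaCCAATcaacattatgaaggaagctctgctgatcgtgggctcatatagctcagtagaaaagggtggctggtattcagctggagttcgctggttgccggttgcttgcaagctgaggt
Hsd17b7: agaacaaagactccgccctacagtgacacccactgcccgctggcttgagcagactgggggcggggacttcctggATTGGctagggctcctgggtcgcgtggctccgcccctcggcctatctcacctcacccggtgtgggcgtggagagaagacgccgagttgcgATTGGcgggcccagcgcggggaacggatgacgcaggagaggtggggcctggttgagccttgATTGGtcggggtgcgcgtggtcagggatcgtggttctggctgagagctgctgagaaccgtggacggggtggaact

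Estimated counts summed to between 50648778 and 90563477 per library, with HTG library 3 the smallest, and HFD library 3 in the middle of its group. Among low counts a value of 4 occurred 6450 times, against 2549 times for 3 and 1757 times for 5, but values between multiples of 4 were common. On the assumption that a fragment was worth 4 counts, 3 fragments, the limit that an empty gene allows, were 12 counts or 0.123 to 0.256 CPM, below every late sterol value. That limit covers counting error only. The mitochondrial chromosome took 4.97 to 6.45% of the counts in HFD and 9.31 to 15.2% in HTG. The hepatocyte markers Alb, Ttr, Apob, Cps1, Cyp2e1 and Serpina1c summed to 82899 to 97174 CPM in HFD and 71269 to 74575 CPM in HTG, and 2 of the 6 were lower in HTG at an unadjusted p under 0.05. Macrophage markers summed to 561 to 1001 CPM in HFD and 390 to 662 CPM in HTG (2 of 5 lower), and stellate cell markers to 136 to 186 and 105 to 162 CPM (1 of 5 lower). Endothelial markers had 44.1 to 98.2 and 74.9 to 116 CPM (0 of 4 lower), cholangiocyte markers 81.6 to 102 and 53.2 to 124 CPM (1 of 4 lower), leukocyte markers 26.9 to 32.3 and 23.3 to 33.0 CPM (0 of 4) and red cell markers 171 to 369 and 224 to 441 CPM (0 of 4). In none of these lists was a marker higher at that threshold, where 12.4% of all genes tested were lower and 12.3% higher. Most of the hepatocyte sum was Alb, at 57854 to 74503 CPM in HFD and 53506 to 55201 CPM in HTG. Most of the cholangiocyte sum was Spp1, at 48.5 to 121 CPM, while Krt19, Krt7 and Epcam were at or below 3.96 CPM. Adipocyte markers were at or below 0.154 CPM with Adipoq at 0 in every library, and exocrine pancreas markers at or below 0.044 CPM with Ctrb1 at 0. The part of these shares, or of the library, in the late sterol values was not tested.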

How the data were processed

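Liver RNA was sequenced as poly(A)-selected, strand-marked, paired-end libraries, 3 HFD and 3 HTG, grouped by their labels. The authors deposited 2 measures per gene and library: an estimated count, a whole number not scaled between libraries, and an FPKM value scaled by transcript length and library total. The submitters' processing notes name HISAT2, StringTie, SAMtools and the rat build mRatBN7.2, without their roles, although the gene rows are mouse. Filters, the annotation and the use of strand in counting are not given in the sources used here.

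Counts were tested with edgeR 4.0.16 (glmQLFit, glmQLFTest, TMM, filterByExpr) in R 4.3.3, fitting the 2 groups alone, and p-values were Benjamini-Hochberg adjusted over the 18455 genes tested. DESeq2 1.42.0, other filters and scalings, counts divided by 4, limma 3.58.1 on log2(FPKM + 0.1) or log2(FPKM + 1), the replicate block and each library left out were alternatives. Leaving out both libraries numbered 3 and the promoter motifs were chosen after seeing the data. The test was also run on counts simulated from the means, library sizes and dispersions of the main fit. Within-group spread used log2(CPM + 0.1).

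The rule for genes named with values took the 9 late sterol genes, other synthesis genes below the unadjusted threshold (0 of those reported here), Lbr, Srebf2, Insig2 and the 5 most alike genes. Overlapping genes, Scap, Mbtps1 and Mbtps2 were named after their values were seen. So were the list genes named in the closing section for a reversal or a call under an alternative. Members, lists and this rule were chosen with earlier results of these data known. Some genes of the planned lists are not reported here, and the lists' counts leave them out.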

Additional observations from a re-analysis of the deposited data

How the results depend on the processing

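Over the alternatives, gene by gene, the 9 late sterol genes kept direction and side of an unadjusted p of 0.05 in 134 values, passed the threshold in 8 more and reversed in 11. The 10 other synthesis genes gave 145, 15 and 10. The 6 regulators gave 73, 1 and 3, and 23 no longer passed. DESeq2 called 1 late sterol gene at an adjusted p under 0.05, where edgeR called 0. Groups did not overlap, with HTG lower, in 1 late sterol gene with DESeq2's size factors (16.5% of all genes), in 1 with FPKM (23.1%) and in 2 without both libraries numbered 3 (23.8%). Pathway genes lower at an unadjusted p under 0.05 numbered 0, but 1 with no filter (8.75% of all genes) and 2 without both libraries numbered 3 (6.52%). With each library left out in turn, late sterol genes lower at that threshold numbered 1 to 6 (2 without HFD library 2, where 9.72% of all genes were, and 6 without HTG library 3, where 8.70% were), and pathway genes 0 to 5 (3 and 5 in these fits). Late sterol genes without overlap numbered 0 to 2 (1 without HFD library 1 or HTG library 1, against 21.0% and 23.9% of all genes, and 2 without HTG library 3, against 18.6%), and the median ranged from -1.77 (HTG library 3) to 0.092 (HFD library 3). Medians over all genes stayed within 0.1 of 0.

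With each library left out in turn, the log2 fold changes that reversed in some such fit ranged as follows: Lss -1.11 to 0.90, Cyp51 -1.77 to 0.018, Tm7sf2 -1.02 to 0.092, Msmo1 -1.78 to 0.0080, Nsdhl -1.80 to 0.40, Ebp -0.40 to 0.040, Sc5d -0.75 to 0.76, Dhcr7 -1.93 to 0.34, Hmgcs1 -1.38 to 1.17, Mvk -1.28 to 0.56, Mvd -1.58 to 0.87, Fdps -2.01 to 0.43, Sqle -2.93 to 1.33, Lbr -0.28 to 0.19, Srebf2 -0.58 to 0.014 and Insig1 -1.07 to 0.35. The highest of each range came without HFD library 3, except for Ebp, whose highest came without HTG library 2. Without both libraries numbered 3 the reversed values were Lss 0.19, Sc5d 0.42, Lbr 0.094 and Insig1 0.10. The cause was not tested.

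Whether the replicate numbers pair the libraries is not given in the labels. Deviations of same-numbered libraries correlated at -0.0943, -0.0894 and 0.137 for numbers 1, 2 and 3 across 18455 genes. Only number 3 correlated best with its own number. With 3 libraries per group, these correlations cannot decide whether libraries were paired or shared a batch by number. With the replicate block, 3 late sterol genes (Cyp51, Hsd17b7 and Dhcr7) and 4 pathway genes (Pmvk, Idi1, Fdps and Fdft1) were lower at an unadjusted p under 0.05, as were 10.5% of all genes, and 0 late sterol genes passed the adjusted threshold. With 3 libraries per group and intervals of the log2 fold change that reach from -2.84 to 1.62 among the late sterol genes, differences of up to several-fold in most of them were not detectable.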
